A study of Mus musculus with 2 samples.

Results

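Pax7, Myf5, Myod1, Myog, Myf6, Msc, Vgll2, Cdh15, Chodl and Spry1 are 10 genes by which muscle stem cells (MuSCs, or satellite cells) and their progeny are recognised, and all 10 were listed among the 19169 genes of a single-cell RNA-seq table of mouse gastrocnemius muscle. The genes were followed per cell in MuSCs, here defined as cells with a read molecule of at least 2 of Pax7, Myf5, Cdh15, Chodl and Myod1 and with none of Pdgfra, Cdh5 and Ptprc, the markers of fibro-adipogenic progenitors (FAPs), endothelial cells and leukocytes. The rule took 444 of 13432 cells. Because it uses 5 of the 10 genes, their levels inside these cells are a description, whereas Myog, Myf6, Msc, Vgll2 and Spry1 had no part in choosing the cells.

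The study compared WT C57BL/6J mice with mice carrying a global knockout of Gsdme (KO), the gene of the pore-forming protein gasdermin E, 14 days after injection of cardiotoxin (CTX), a venom protein that destroys muscle fibers; ages are not given in the sources used here. All mice of both genotypes received CTX, so no uninjured muscle entered the comparison. There was 1 library per genotype, the methods state 5 mice per genotype without saying whether they were pooled, and cells were captured by the 10x Genomics droplet method, in which every captured RNA is tagged with a unique molecular identifier (UMI). The table held 6354 cells labelled WT and 7078 labelled KO, with medians of 5740 and 5962.5 UMIs per cell, and 4 barcodes occurred in both. Gsdme RNA, at 5.03 CPM with the WT label and 4.65 CPM with the KO label (CPM, UMIs summed over cells and divided by the summed UMIs, times 1000000), did not separate the labels, and the deleted part of the gene is not given in the sources used here, so every direction below rests on the labels alone. With no replicate libraries, no test between genotypes was made, and every 95% interval (exact Poisson for CPM, exact binomial for shares and ratios) covers counting error only, not the spread between mice, cells or libraries.

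MuSCs lie between the muscle fiber and its basement membrane and rest until injury. PAX7 marks the stem cells and is needed to keep them. On activation they raise MYOD1 and, with MYF5, divide as myoblasts; MYOG then drives exit from the cell cycle and fusion, and MYF6 is the myogenic factor most typical of mature fibers. These 4 myogenic factors are basic helix-loop-helix proteins that bind the E-box, CANNTG, with E-protein partners, while MSC (musculin) is a related protein that can oppose them. VGLL2 is a cofactor of TEAD factors in muscle, CDH15 (M-cadherin) is an adhesion molecule, CHODL (chondrolectin) a membrane lectin, and SPRY1 an inhibitor of receptor tyrosine kinase signalling that helps MuSCs return to rest.

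In the GENCODE annotation of GRCm38 (mm10), Myf5 is at chr10:107482908-107486134 (minus strand) and Myf6 at chr10:107492853-107494737 (minus strand), neighbours separated by 6718 bp. Pax7 is at chr4:139737062-139833528 (minus strand), Myod1 at chr7:46376474-46379099 (plus strand) and Myog at chr1:134289989-134292548 (plus strand). Msc is at chr1:14753346-14755992 (minus strand), Vgll2 at chr10:52022502-52028471 (plus strand) and Cdh15 at chr8:122847966-122867397 (plus strand). Chodl is at chr16:78930948-78951733 (plus strand) and Spry1 at chr3:37639947-37644598 (plus strand). The UMIs were counted per gene, with no split by exon or transcript.

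The 250 bases before the RefSeq start (GRCm38.p6) of 3 of these genes are printed because the 3 parted in the cells described below. Myog was high in few MuSCs. Chodl was low in those Myog cells and was also read in tendon cells, and Myf5 was low in the Myog cells too. E-boxes (CANNTG, the same on both strands) are in capitals. The windows are chr1:134289754-134290003 (plus strand) for Myog, chr16:78930698-78930947 (plus strand) for Chodl and chr10:107486135-107486384 (minus strand) for Myf5.
Myog: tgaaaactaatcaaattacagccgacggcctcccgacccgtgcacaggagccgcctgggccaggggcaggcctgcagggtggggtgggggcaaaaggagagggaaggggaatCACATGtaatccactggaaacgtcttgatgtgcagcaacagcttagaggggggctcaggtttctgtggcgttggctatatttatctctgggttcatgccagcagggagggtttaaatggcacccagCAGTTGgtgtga
Chodl: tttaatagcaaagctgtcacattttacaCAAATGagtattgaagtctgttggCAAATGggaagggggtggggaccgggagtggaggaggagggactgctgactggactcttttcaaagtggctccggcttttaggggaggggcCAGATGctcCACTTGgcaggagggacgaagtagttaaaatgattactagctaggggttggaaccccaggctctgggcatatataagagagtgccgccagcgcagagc
Myf5: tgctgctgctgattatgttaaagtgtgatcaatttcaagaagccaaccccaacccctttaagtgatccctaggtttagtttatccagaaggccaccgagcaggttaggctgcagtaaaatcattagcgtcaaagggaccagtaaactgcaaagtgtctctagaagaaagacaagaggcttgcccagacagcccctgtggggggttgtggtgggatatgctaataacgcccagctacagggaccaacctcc
The Myog window held 2 E-boxes, the nearer of them 12 bases before the RefSeq start, the Chodl window held 4 and the Myf5 window none. The Myog window ends at 134290003, past the GENCODE start of the gene at 134289989, so the RefSeq and GENCODE starts differ. Of 32851 RefSeq promoter windows of this length, 66.2% held at least 1 E-box, 31.8% at least 2 and 3.84% at least 4. Among the other members with an entry, Cdh15 held 3 E-boxes, Spry1 2, Vgll2 1 and Pax7 none. The letters are a description of these windows and do not show binding.

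The cells taken by the rule carried markers of MuSCs that the rule had not used. All 8 such markers (Calcr, Fgfr4, Megf10, Chrdl2, Musk, Chrna1, Des and Itga7) were higher in the MuSCs than in all other cells of the same library, in both libraries. Calcr, the calcitonin receptor of resting MuSCs, was at 73.6 CPM against 1.44 CPM elsewhere in the library labelled WT and at 99.3 against 1.48 CPM in the library labelled KO. Of the cells with at least 2 of the 5 genes, 67 of 275 (WT) and 73 of 309 (KO) were turned away because they also held Pdgfra, Cdh5 or Ptprc, most often Cdh5 (50 and 57 cells). The cells turned away were deep, with medians of 16367 and 13466 UMIs against 7074.5 and 5621.5 UMIs in the cells kept. The rule left 208 MuSCs labelled WT (3.27% of cells, 2.85 to 3.74) and 236 labelled KO (3.33%, 2.93 to 3.78). The shares differed by 0.0607 percentage points, with an interval from -0.558 to 0.675.

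RNA of other cell types was also read in these MuSCs, and that of FAPs, tenocytes and mature muscle was higher in the library labelled KO. The 6 FAP markers summed to 618 CPM in MuSCs labelled WT and 2151 CPM in those labelled KO, 7 tenocyte markers to 24.0 and 348 CPM, and 7 markers of mature muscle to 679 and 3200 CPM. Of these UMIs in the library labelled KO, 77.1%, 93.6% and 91.0% lay in the 10 cells with the most. Without the 10 MuSCs of each library richest in the 3 lists together, the sums were 508 and 659 CPM, 20.9 and 33.5 CPM, and 489 and 380 CPM. Pdgfra and Cdh5 were at 0 by the rule, the dendritic and T and NK cell lists summed to at most 1.28 CPM, and the macrophage list to 66.2 and 57.0 CPM. The pericyte list was at 135 and 129 CPM, the endothelial list at 27.4 and 18.6 CPM and the Schwann cell list at 99.3 and 185 CPM. The smooth muscle list summed to 685 and 670 CPM, above the 240 and 171 CPM of all other cells, with Myocd at 0 in both libraries. With all MuSCs counted, the mature muscle list was also above all other cells, which were at 505 (WT) and 1590 CPM (KO). Of its 7 genes, 6 were higher in MuSCs in WT and 7 in KO. Immediate early and heat shock genes, which also rise during tissue digestion, were higher in the library labelled KO: the sum of 12 was 9982 CPM in MuSCs labelled WT and 18935 CPM in those labelled KO. Leaving out the 10 cells did not lower that sum (10341 and 19892 CPM), and its part in the differences below was not tested.

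Of the 10 genes, 8 were at least 10-fold higher in MuSCs than in all other cells of the library, in both libraries, whereas 1.16% of the 9169 genes with at least 20 UMIs in MuSCs were; 5 of the 8 had chosen the cells. Of the 5 genes outside the rule, Myog (61.5-fold in WT and 52.8-fold in KO), Vgll2 (55.9-fold and 138-fold) and Msc (30.5-fold and 41.5-fold) reached it. Spry1 was 1.14-fold and 2.04-fold higher in MuSCs than elsewhere. Myf6 was at 0 UMIs in MuSCs labelled WT and at 3 UMIs in those labelled KO. The map of levels by cell type shows the difference in breadth between these genes.

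**Figure D1:**
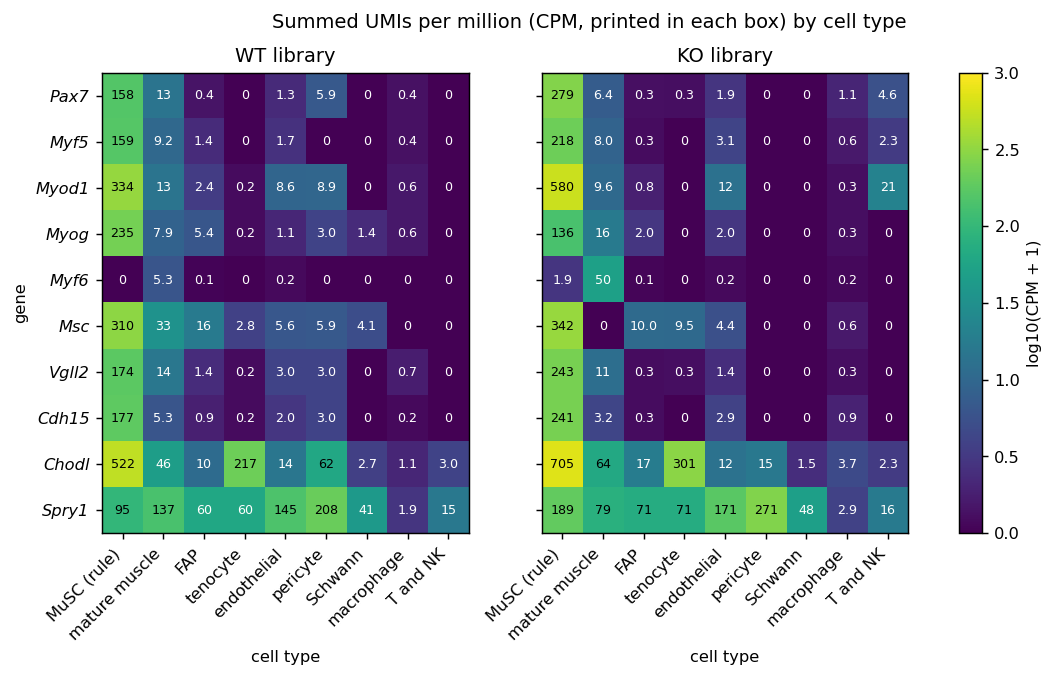
Level of each gene (rows) in each cell type (columns) in the library labelled WT (left) and labelled KO (right), as CPM, printed in each box and coloured on a log10(CPM + 1) scale. Pax7, Myf5, Myod1, Myog, Vgll2 and Cdh15 are bright in MuSCs and near 0 in most other columns, Chodl is also bright in tenocytes (217 and 301 CPM), Spry1 is spread over vascular and stromal cells, and Myf6 stands only in mature muscle cells (5.26 and 49.7 CPM) at more than a few CPM.

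Summed over all cells outside MuSCs, Pax7, Myf5 and Cdh15 were low. Over all other cells, Pax7 was at 2.30 CPM (WT) and 2.03 CPM (KO), and 99 and 100 UMIs made up these levels. When cells with at least 2 of the 5 rule genes were left out, 11 and 9 UMIs of Pax7 remained, a level of 0.264 and 0.187 CPM. Myf5 then kept 11 and 6 UMIs and Cdh15 11 and 8 UMIs. Another 27 cells (WT) and 14 cells (KO) outside the rule were typed by the 8 markers as MuSC-like, with Pax7 at 149 and 116 CPM. Pax7, Myf5 and Cdh15 are rule genes, so leaving out cells with at least 2 rule genes lowers their levels by construction. In macrophages, which should not make these genes, a Pax7 UMI was read in 2 of 863 cells (WT) and 3 of 1071 (KO), at median depths of 5746 and 5760 UMIs.

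Chodl was also read outside MuSCs, most clearly in tenocytes. It was read in 138 of 385 tenocytes labelled WT (35.8%, 31.0 to 40.9) and in 134 of 301 labelled KO (44.5%, 38.8 to 50.3), at 217 and 301 CPM. In macrophages it was read in 5 of 863 and 14 of 1071 cells, or 1.12 and 3.67 CPM. The tenocytes held no Pax7, Myf5 or Cdh15 beyond 1 UMI in either library, and leaving out their cells with at least 2 rule genes left Chodl at 217 and 301 CPM. With such cells left out, 42 FAPs labelled WT and 96 labelled KO still held Chodl, at 8.89 and 16.1 CPM. Macrophages were then at 0.748 and 1.69 CPM, and cells given no type at 62.5 and 67.1 CPM. MuSCs held 32.8% (WT) and 32.9% (KO) of all Chodl UMIs. After thinning each cell to 1000 UMIs, 44.2% and 53.0% of MuSCs and 15.1% and 21.6% of tenocytes held a Chodl UMI.

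Spry1 was the most widely read of the 10. MuSCs held 4.45% (WT) and 6.06% (KO) of its UMIs. Pericytes were at 208 and 271 CPM and endothelial cells at 145 and 171 CPM, against 94.7 and 189 CPM in MuSCs and 1.87 and 2.90 CPM in macrophages. FAPs were at 60.1 and 71.0 CPM and tenocytes at 60.5 and 70.8 CPM. In the library labelled WT the Spry1 interval of MuSCs (80.9 to 110) lay below that of endothelial cells (138 to 152), and in the library labelled KO the intervals (168 to 212 and 163 to 179) overlapped.

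Msc was read in FAPs above the level of macrophages. A UMI of Msc was found in 113 of 1940 FAPs labelled WT (5.82%, 4.82 to 6.96) and 124 of 2405 labelled KO (5.16%, 4.31 to 6.12), against 0 and 3 macrophages. Without FAPs that held at least 2 rule genes, 109 and 121 FAPs with Msc remained. The level in FAPs was 15.6 and 9.97 CPM, and in MuSCs 310 and 342 CPM. Tenocytes were at 2.76 and 9.53 CPM, so Msc outside MuSCs was not confined to FAPs. Median depths were 6965.5 and 7944 UMIs in FAPs and 5746 and 5760 in macrophages.

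Myf6 had its highest level in the mature muscle cells, which held 4 of its 10 UMIs in WT and 31 of its 39 in KO. It was read in 3 of 98 such cells labelled WT and 19 of 119 labelled KO, with 4 and 31 UMIs, or 5.26 CPM (1.43 to 13.5) and 49.7 CPM (33.8 to 70.6). In MuSCs, 0 of 208 cells labelled WT held it, with an upper Poisson limit of 2.11 CPM, and 2 of 236 labelled KO did. Markers of mature muscle summed to 505 CPM (WT) and 1590 CPM (KO) over all cells other than MuSCs, and the fiber RNA in each capture and the genotype cannot be told apart.

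Inside MuSCs the members differed in how many cells they were read in. Pax7 was read in 120 of 208 MuSCs labelled WT (57.7%, 50.7 to 64.5) and in 182 of 236 labelled KO (77.1%, 71.2 to 82.3). Since Pax7 was part of the rule, it was counted again in cells chosen by at least 2 of the other 4 rule genes, which gave 54.4% of 193 cells (47.1 to 61.6) and 75.5% of 220 cells (69.2 to 81.0). In cells chosen by the 8 markers that are no members it was 57.4% of 162 (49.4 to 65.1) and 75.1% of 177 (68.1 to 81.3). After thinning to 1000 UMIs, in the rule's cells, the shares were 17.0% and 29.5%. In all 4 counts the share was higher in the library labelled KO, although its MuSCs were the shallower.

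Myod1 was read in 96 of 208 (46.2%, 39.2 to 53.2) and 118 of 236 MuSCs (50%, 43.4 to 56.6). Chosen without Myod1, the shares were 37.1% (30.0 to 44.6) and 46.6% (39.9 to 53.4). In the rule's cells, KO minus WT was 3.85 percentage points (-5.77 to 13.4), and after thinning to 1000 UMIs 10.1 points (1.81 to 18.2). Before thinning, the cells that held Myod1 held more of it in the library labelled KO. Their median was 3.85 UMIs per 10000 in WT and 8.21 in KO, and their mean 6.10 and 7.67 UMIs. In cells that held Pax7 the medians were 2.51 and 3.22 UMIs per 10000, and the means 2.31 and 2.40 UMIs.

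Myf5 was read in 50.5% of MuSCs labelled WT and 49.2% of those labelled KO, and KO minus WT was -1.33 percentage points (-10.9 to 8.27). After thinning the shares were 14.6% and 22.2%, which turned the difference to 7.66 points (0.0683 to 15.1). Cdh15 was read in 64.9% and 69.5% of cells, and in 59.9% and 67.7% of cells chosen without it. Chodl, the most frequently read, was found in 88.0% and 92.8%, and in 83.9% and 91.5% of cells chosen without it.

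Of the genes outside the rule, Vgll2 was read in 95 of 208 (45.7%) and 125 of 236 (53.0%) MuSCs, Spry1 in 79 (38.0%) and 109 (46.2%), and Msc in 104 (50%) and 93 (39.4%). Msc alone of these fell in share by an interval clear of 0 (-10.6 points, -20.0 to -1.01), but thinning to 1000 UMIs turned the difference to 1.58 points (-6.24 to 9.27), with 18.9% and 20.5% of cells. Spry1, thinned alike, was read in 13.1% and 15.0% of cells, 1.85 points apart (-5.05 to 8.61). The median amount in cells with Msc was 2.96 (WT) and 4.27 (KO) UMIs per 10000. Msc was also uneven between cells, since the 10 cells with the most held 44.9% of its UMIs in each library, against 14.1% for Chodl.

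Pairs of genes were read together in the following way. Myf5 was read beside Pax7 in 66 MuSCs labelled WT and 90 labelled KO, Pax7 without Myf5 in 54 and 92, and Myf5 without Pax7 in 39 and 26. Pax7 and Myod1 were read together in 45 and 84 cells. Pax7 was found in 46.9% of the cells with Myod1 and 67.0% of those without in the library labelled WT, and in 71.2% and 83.1% in the library labelled KO. The rule itself couples these genes, because a cell with neither Pax7 nor Myod1 needs a pair of the other genes to be counted. In the cells chosen by 8 markers that are no members, Pax7 was found in 49.2% of cells with Myod1 and 62.4% of cells without in WT, and in 75.6% and 74.7% in KO. Msc, which can oppose Myod1, was read beside it in 57 and 44 cells. Myod1 was found in 54.8% of cells with Msc and 37.5% of those without in WT, and in 47.3% and 51.7% in KO.

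Sorting the MuSCs by Pax7, Myod1 and Myog gave 5 groups. Cells with Pax7 and without Myod1 or Myog were 75 of 208 in WT (36.1%, 29.5 to 43.0) and 98 of 236 in KO (41.5%, 35.2 to 48.1). Cells with both Pax7 and Myod1 were 42 (20.2%, 15.0 to 26.3) and 82 (34.7%, 28.7 to 41.2), 14.6 percentage points apart (5.95 to 22.9). Cells with Myod1 and no Pax7 were 42 (20.2%) and 31 (13.1%), a difference of -7.06 points (-14.4 to 0.174). Cells with Myog were 12 (5.77%, 3.02 to 9.86) and 5 (2.12%, 0.691 to 4.87), and KO minus WT was -3.65 points (-7.98 to 0.245). Cells with none of these 3 genes were 37 (17.8%) and 20 (8.47%). After thinning to 1000 UMIs, cells with both Pax7 and Myod1 were 3 of 206 (1.46%) and 16 of 234 (6.84%), and cells with Myog 8 (3.88%) and 3 (1.28%). Cells with Myod1 and no Pax7 were then 34 (16.5%) and 51 (21.8%), which turned the direction of that difference, and cells with Pax7 and no Myod1 were 32 (15.5%) and 53 (22.6%). The shares by detection are drawn with their intervals.

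**Figure D2:**
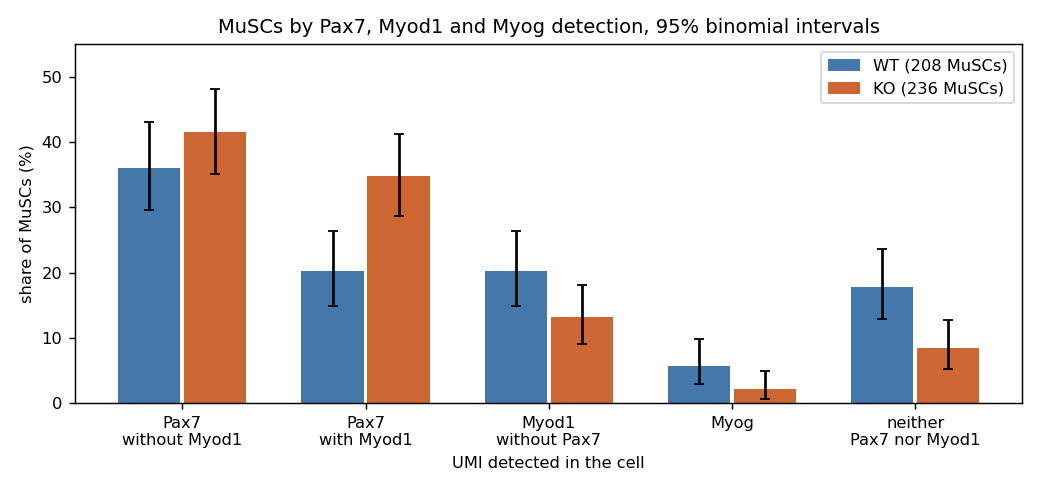
Share of MuSCs (vertical axis, %) with a UMI of Pax7, Myod1 or Myog, in 208 MuSCs labelled WT (blue) and 236 labelled KO (orange), with exact 95% binomial intervals; the 4 groups other than Myog exclude cells with Myog. The intervals of the cells with both Pax7 and Myod1 (15.0 to 26.3 and 28.7 to 41.2) do not overlap, while those of the Myog cells (3.02 to 9.86 and 0.691 to 4.87) do.

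Other genes differed between these groups of cells as well. Mki67, a gene of dividing cells chosen here after its values had been seen, was at 7.73 CPM in WT cells with Pax7 and no Myod1, 160 CPM in those with both and 182 CPM in those with Myod1 alone. In the library labelled KO the same groups were at 10.3, 51.5 and 213 CPM. These levels came from 1, 5 and 6 cells in WT and from 1, 3 and 1 cells in KO, so the level of 213 CPM is that of 1 cell among 31. Jun, an immediate early gene, was at 1185, 1031 and 500 CPM in WT and at 1837, 1954 and 712 CPM in KO. It was lowest of these 3 groups in the cells with Myod1 alone, and higher in KO in each of the 3. In cells without Pax7, Myod1 and Myog it was at 397 (WT) and 1116 CPM (KO). In Myog cells it was at 369 and 1092 CPM, so in WT both of the latter groups were lower still. Fos, another immediate early gene, was in the first 3 groups at 1737, 1704 and 371 CPM in WT and at 1357, 1407 and 755 CPM in KO. It was therefore lower in KO in both groups with Pax7. Myf5 was at 189, 232 and 63.1 CPM in these groups in WT and 303, 159 and 170 CPM in KO, which gives no common order.

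The cells with Myog stood apart. In the 17 of them, Myog reached 63 UMIs in a cell labelled WT and 172 in a cell labelled KO, and the medians were 40 and 15 UMIs. All 12 WT and all 5 KO cells also held Myod1, and 12 and 4 held Cdh15, which the rule largely fixed, since a cell without Pax7, Myf5 and Chodl enters it only with both. Among cells chosen by the 8 markers that are no members, Myod1 was read in 11 of 11 Myog cells labelled WT and 4 of 5 labelled KO, and Cdh15 in 10 and 4. Among the rule's cells, Chodl was read in 1 of 12 and 2 of 5, against 182 of 196 and 217 of 231 MuSCs without Myog. Pax7, Myf5 and Chodl are rule genes too, so part of their difference between these cells is built in. By the 8 markers, Pax7 was read in 27.3% (WT) and 40% (KO) of Myog cells, against 59.6% and 76.2% of other cells. Myf5 was read there in 27.3% and 20%, against 51.0% and 50%. Chodl was read there in 1 of 11 and 2 of 5 Myog cells. Over both libraries, Pax7 was at 36.5 CPM in Myog cells and 237 CPM in other MuSCs, a log2 ratio of -2.70 (-3.62 to -1.92), and Myf5 at 39.3 and 205 CPM (-2.38, -3.26 to -1.62). Chodl was at 28.0 and 678 CPM (-4.60, -5.66 to -3.71), Spry1 at 22.4 and 153 CPM (-2.77, -3.99 to -1.78) and Msc at 84.1 and 354 CPM (-2.07, -2.65 to -1.55), of which 26 of the 30 Msc UMIs came from a single cell. Vgll2 was at 177 and 210 CPM, a log2 ratio of -0.25 with an interval from -0.65 to 0.12, but the libraries went opposite ways, with 232 against 164 CPM in WT and 46.7 against 258 CPM in KO. These cells were deep, with medians of 19846.5 (WT) and 23143 (KO) UMIs in all, and they held 14.2% and 6.86% of all UMIs of the MuSCs.

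**Figure D3:**
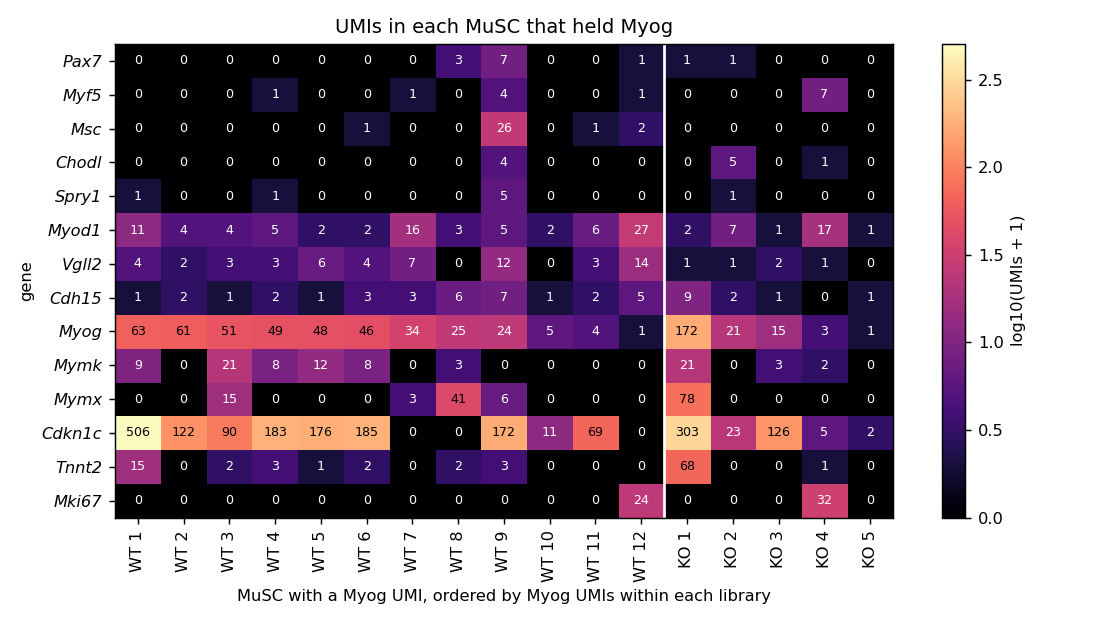
UMIs of 14 genes (rows, number printed in each box, colour on a log10(UMIs + 1) scale) in each of the 12 MuSCs labelled WT and 5 labelled KO that held Myog (columns, ordered by Myog within each library). Pax7, Myf5, Msc, Chodl and Spry1 are at 0 in most columns, Myod1 is above 0 in every column, 1 cell of each library (WT 12 and KO 4) holds Mki67 with 1 and 3 UMIs of Myog, and 1 KO cell holds 172 of the 212 Myog UMIs.

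The 10 genes highest in the Myog cells over the other MuSCs were Tnnt2, Mymx, Mymk, Kera, Cdkn1c, Tnni1, Actc1, Mylk4, Klhl41 and Cav3. Mymk and Mymx, the pair of membrane proteins that fuse myoblasts, were at 245 and 261 CPM in the WT Myog cells and at 243 and 728 CPM in the KO ones, where all 78 UMIs of Mymx lay in 1 cell. No other MuSC held Mymk, which makes its ratio at least 240.5-fold with 3 UMIs taken for the other cells, and Mymx was at 1.01 CPM there. Cdkn1c, an inhibitor of the cell cycle, was read in 9 of 12 and 5 of 5 cells at 6069 and 4284 CPM, against 79.9 and 37.8 CPM in other MuSCs. Tnnt2, Tnni1 and Actc1 encode sarcomere proteins of early muscle, and Actc1 was at 734 and 1736 CPM in Myog cells. Kera, a gene of tendon matrix, and Tnni1 each owed most of their UMIs (33 and 53) to a single cell labelled KO. Tnnt2 likewise owed 68 of its 97 UMIs in Myog cells to 1 cell labelled KO.

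The rule missed part of the Myog cells. Over all cells, 16 labelled WT and 8 labelled KO held at least 5 Myog UMIs. Of these, 10 and 3 were MuSCs by the rule, 4 and 3 held Pdgfra, Cdh5 or Ptprc, and 2 and 2 were outside it for want of rule genes. The cells were few in either library, and whether their number differed between the genotypes could not be tested with 1 library each.

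Summed over MuSCs, 9 of the 10 members could be compared between genotypes. Pax7 was at 158 CPM (140 to 178) in WT and 279 CPM (254 to 307) in KO, a KO-over-WT log2 ratio of 0.82 (0.60 to 1.04). Myod1 was at 334 CPM (308 to 363) and 580 CPM (542 to 619), a log2 ratio of 0.79 (0.64 to 0.95). Spry1 was at 94.7 CPM (80.9 to 110) and 189 CPM (168 to 212), a log2 ratio of 0.996 (0.72 to 1.28). For these 3 genes the intervals of the libraries were clear of each other and the ratio was over 1.5-fold. With each cell thinned to 1000 UMIs, the Spry1 log2 ratio was 0.45 and its interval held 0 (-0.23 to 1.15), from 31 and 48 UMIs.

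Myog was the gene that was lower, at 235 CPM (212 to 258) in WT and 136 CPM (118 to 155) in KO, a log2 ratio of -0.79 (-1.03 to -0.55). This level rests on 12 and 5 cells, and 1 cell held 172 of the 212 UMIs in the library labelled KO. Without MuSCs over 20000 UMIs, 213 and 16 UMIs remained and the log2 ratio was -3.70. Counting only cells with at least 3 of the 5 rule genes turned it to 0.46 (0.13 to 0.79), from 133 and 196 UMIs.

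The remaining members were less than 1.5-fold apart. Myf5 was at 159 and 218 CPM (log2 ratio 0.45, 0.22 to 0.69), Vgll2 at 174 and 243 CPM (0.48, 0.26 to 0.71), Cdh15 at 177 and 241 CPM (0.44, 0.22 to 0.67) and Chodl at 522 and 705 CPM (0.43, 0.30 to 0.56). Msc was at 310 and 342 CPM (0.14, -0.03 to 0.32), which differed by less than counting error. Myf6, with 0 and 3 UMIs, gives no ratio. Leaving out the 10 MuSCs of each library richest in FAP, tenocyte and muscle RNA, a setting chosen after seeing the data, gave log2 ratios of 0.85 for Pax7, 0.94 for Myod1 and 1.06 for Spry1.

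**Figure D4:**
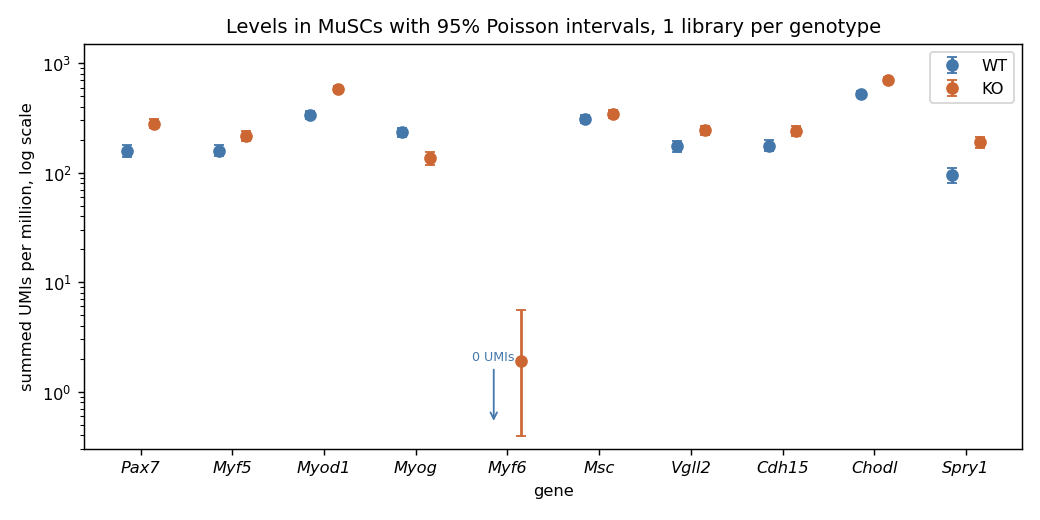
Level of each gene in MuSCs (vertical axis, CPM, log scale) in the library labelled WT (blue) and labelled KO (orange), with exact 95% Poisson intervals that cover counting error only. All compared genes but Myog are higher in KO, with Msc intervals that overlap (284 to 337 and 314 to 372), and Myf6 has 0 UMIs in WT (arrow, from the 1.71 CPM that 3 UMIs would give) and 3 in KO.

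Of the 9 members compared, 3 (Pax7, Myod1 and Spry1) were at least 1.5-fold higher in KO, against 18.7% of the 9169 genes with at least 20 UMIs, and 1 (Myog) was at least 1.5-fold lower, against 11.1%. Among the 1341 genes with at least 400 UMIs in MuSCs, which all 9 members had, 12.8% were that much higher and 9.17% that much lower. The median log2 ratio over the 9169 genes was 0.05 and their 5th and 95th percentiles were -0.86 and 1.24. Against these genes, Pax7 stood above 88.5%, Myod1 above 87.8%, Spry1 above 91.8% and Myog above 6.07%.

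The ratios kept their sign for 8 of the 9 members under each alternative reported here, as the plot of ratios by setting shows. Pax7 ranged from 0.58 to 0.86, Myod1 from 0.72 to 1.09 and Spry1 from 0.45 to 1.06. The lowest Spry1 value came from thinning, and its interval held 0 (-0.23 to 1.15). The mean over cells, which gives each cell equal weight, was 0.58 for Pax7, 0.72 for Myod1, 0.71 for Spry1 and -1.89 for Myog.

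**Figure D5:**
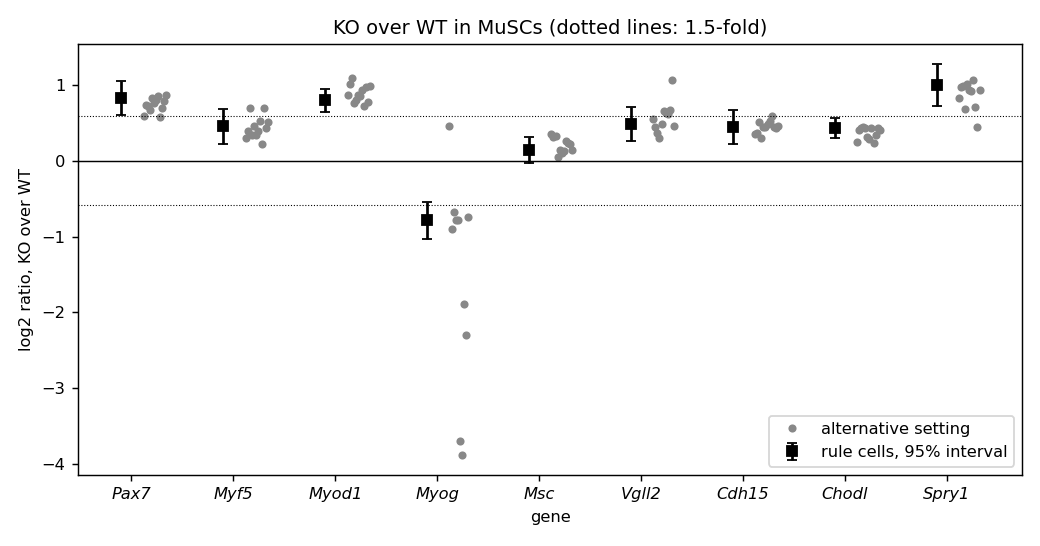
Log2 ratio of KO over WT in MuSCs for 9 genes (horizontal axis), with the cells of the rule and their exact 95% interval (black squares) and the same ratio under alternative settings (grey points); dotted lines mark 1.5-fold. Myod1 stays above the upper dotted line under each setting, Pax7 and Spry1 reach down to 0.58 and 0.45, and Myog spreads from 0.46 to -3.88.

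Genes that work with the members were read from 5 lists. Of 25 measured genes of the satellite cell niche and of quiescence, 8 were at least 1.5-fold higher in KO and none lower, with a median log2 ratio of 0.31. They were Cd34 (43.4 and 98.0 CPM), Vcam1 (296 and 500 CPM), the receptor Notch3 (237 and 395 CPM) and its target Heyl (61.1 and 92.9 CPM), Sdc4, Megf10, Tenm4 and Eya1. The share of all genes that were as much higher was 18.7%, and 11.1% were as much lower. Without the 10 cells of each library richest in FAP, tenocyte and muscle RNA, the same 8 genes were past the fold. Without the Myog cells 6 were, with Heyl at 0.55 and Tenm4 at 0.54. The shares of all genes were computed with all MuSCs only. Counts with cells left out, here and in the lists below, have no such share beside them.

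Of 9 partners and cofactors of the myogenic factors (E proteins, Id proteins and Mef2 factors), 3 were at least 1.5-fold higher and none lower, against 18.7% and 11.1% of all genes, with a median of 0.42. Id3, which binds E proteins and keeps them from the myogenic factors, was at 454 CPM in WT and 992 CPM in KO, a log2 ratio of 1.13 (1.002 to 1.25). The E protein Tcf4 was at 272 and 501 CPM (0.88, 0.72 to 1.05). Mef2c was at 4.57 and 33.9 CPM, from 8 and 53 UMIs.

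The list of differentiation and fusion turned on few cells. Of 17 measured genes, 6 (Acta1, Myl1, Ckm, Tnnt1, Tnnt2 and Tnni1) were at least 1.5-fold higher in KO and 2 (Mymk and Cdkn1c) lower, against 18.7% and 11.1% of all genes, with a median of 0.30. Without the 10 MuSCs of each library richest in FAP, tenocyte and muscle RNA, of 14 genes then measured 1 (Tnnt1) was higher and 7 (Mymk, Mymx, Actc1, Myl4, Cdkn1c, Ttn and Neb) were lower, with a median of -0.74. Without the Myog cells, 5 of 12 were higher and 5 lower, with a median of 0.08. The 10 cells of each library were chosen in part for Acta1 and Ckm, which are in both lists. Leaving them out also removed Myog RNA unevenly: 299 of 411 Myog UMIs stayed in WT and 18 of 212 in KO. The counts without them therefore cannot separate RNA of other cells from differentiation of the MuSCs. Cdkn1c was at 933 CPM in WT and 329 CPM in KO (log2 ratio -1.50, -1.65 to -1.36), and at 601 and 129 CPM without the 10 cells.

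Of 12 cell cycle genes, 1 (Ccnd2, at 9.13 and 50.6 CPM) was at least 1.5-fold higher and 4 (Cdk1, Birc5, Mcm2 and Mcm5) lower, against 18.7% and 11.1% of all genes, with a median of -0.09. The intervals of Mcm2 (-1.79 to 0.162) and Mcm5 (-1.68 to 0.0398) crossed 0. Without the Myog cells, a setting chosen after seeing the data, 1 was higher and 5 lower, with a median of -0.51. The KO Myog cells included 1 cell with 3 Myog and 32 Mki67 UMIs. Leaving out Myog cells took Mki67 from 109 to 77 UMIs in KO and from 156 to 132 in WT. Birc5 went from 47 to 22 UMIs in KO and from 98 to 86 in WT, so the change rests on few cells. Of the 12 immediate early and heat shock genes, 8 were higher, among them Egr1 (1224 and 2979 CPM), Jun (775 and 1659 CPM), Atf3 (442 and 1022 CPM), Hspa1a (672 and 2304 CPM) and Hspa1b (642 and 2773 CPM), and none lower, against the same shares of all genes, with a median of 1.04. That median was the highest of the 5 lists. Whether digestion of the tissue, which precedes capture, had a part in the levels of Pax7, Myod1 or Spry1 was not tested.

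Likeness between genes was measured by Pearson's r of log2(CPM + 1) over 12 cell types in 2 libraries, 24 points that share libraries and depth, as a description. The 5 genes most like Pax7 were Cdh15 (r = 0.96), Myf5 (0.96), Vgll2 (0.94), Calcr (0.94) and Myod1 (0.93). Pax7, Cdh15, Myf5 and Myod1 chose the MuSCs, so the likeness among these 4 was in part built in by the rule. The 5 most like Myog were Popdc3 (0.97), Mymk (0.95), Col19a1 (0.95), Edn3 (0.94) and Pitx3 (0.93). No member was among the latter.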

How the data were processed

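The table holds cells of gastrocnemius muscle, taken 14 days after CTX, from 1 library per genotype, grouped by the labels; the end of each barcode names its library. The submitters' processing notes name Cell Ranger 2.1.1 and mm10, and the study's methods describe Seurat, removal of doublets and a filter on mitochondrial RNA. The authors deposited a table of natural log values, each ln(1 + x) with x the UMIs of a gene scaled to 10000 UMIs in its cell. No mitochondrial gene was listed, and no further doublet call was made.

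The log was undone and UMIs were recovered as whole numbers; of 29528482 values above 0, 33 were over 0.1 UMI from whole (largest distance 0.434). The library labelled WT held 44758518 UMIs and the library labelled KO 50930010. UMIs were summed over cells and scaled to 1000000 (CPM) with exact Poisson intervals. For ratios, the exact binomial interval of the KO share of the UMIs was converted, and differences of shares were given that of the pair of binomial intervals. A gene at 0 was set to 3 UMIs where a ratio was ranked. Other cell types were called by the largest number of detected markers (at least 3, no tie, 13 sets). Cells were thinned with seed 1 to 1000 UMIs. Steps were tested on simulated data. Python 3.11.15 was used with scipy 1.17.1, numpy 2.4.6 and matplotlib 3.10.9; gene positions came from GENCODE M21.

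The members, the lists, the cell type markers and the tests were chosen with earlier results of these data known. The rule for genes named besides the members took those of the 5 lists at least 1.5-fold apart, the 10 highest in Myog cells and the 5 most like Pax7 and Myog. Markers that checked the cells, and Mki67 and Fos, chosen after their values were seen, are named outside it. Alternatives changed the definition of MuSCs, the cells kept, the scaling, the fold and the minimum of UMIs; 1 further definition of MuSCs is not reported here.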

Additional observations from a re-analysis of the deposited data

How the results depend on the processing

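With 1 library per genotype, no library could be left out and no replicate compared. No paired analysis was possible because each genotype has 1 library. The difference in the share of MuSCs stayed within its own interval under the 5 definitions reported here (-0.0489 to 0.527 points). For the log2 ratio of KO over WT, asking for at least 3 of the 5 rule genes gave 0.58 for Pax7, 0.35 for Msc, 0.24 for Chodl and, with a change of sign, 0.46 for Myog. Dropping Chodl from the rule gave 1.01 for Myod1. The 8 markers that are no members gave 0.70 for Myf5, 1.09 for Myod1 and 0.33 for Msc. Dropping the exclusion of Pdgfra, Cdh5 and Ptprc gave 0.68 for Spry1. The mean over cells gave 0.58 for Pax7, -1.89 for Myog, 0.23 for Chodl and 0.71 for Spry1. Thinning to 1000 UMIs gave 0.69 for Myf5, 0.97 for Myod1, -2.30 for Myog, 1.06 for Vgll2 and 0.45 for Spry1. Choosing cells without Myod1 gave 0.99 for Myod1. Of the settings chosen after seeing the data, leaving out MuSCs over 20000 UMIs gave -3.70 for Myog and 0.29 for Chodl, and leaving out the 10 cells of each library richest in other RNA gave -3.88 for Myog. The cause was not tested for any of these. The members at least 1.5-fold apart numbered 4; they were 2 with at least 3 rule genes, 0 at 2-fold, and 4 or 5 under the other settings. For the share of cells with Msc, thinning turned a difference of -10.6 points to 1.58 points. Depth limits Myf6 (3 UMIs) and Myog (17 cells).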
